A study of Mus musculus with 12 samples.

Results

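Zfp genes are the mouse genes named for zinc finger proteins, and they make up a large family of DNA- and RNA-binding regulators. They were taken as all genes whose symbol in the deposited list of polyA sites (PASs) starts with Zfp and a digit. There were 344 of them among the 16627 listed genes, and they held 1482 of the 56204 entries of the list. The symbols are those of the list, and 14 of them are older names, such as *Zfp238* for Zbtb18, *Zfp191* for Zfp24 and *Zfp259* for Zpr1.

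Most members are C2H2 zinc finger proteins, in which each finger holds a zinc ion between a pair of cysteines and a pair of histidines and tandem fingers read out DNA sequence. Many also carry a KRAB domain near the start of the protein, which recruits the corepressor KAP1 (Trim28) and with it heterochromatin. Such KRAB zinc finger genes multiplied by local duplication and silence retroelements and other targets. A few members are different proteins: *Zfp36* and its relatives bind AU-rich elements in 3′UTRs through CCCH fingers and promote mRNA decay. Cleavage and polyadenylation at a PAS sets the 3′ end of an mRNA. A choice among PASs within the 3′UTR changes its length, and use of a PAS in an intron leaves out every exon downstream of it.

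The list came from 12 3′READS+ libraries, a method that sequences the 3′ ends of polyadenylated RNA. They were made from acute hippocampal mini-slices of C57BL/6 mice, labelled 3 months old, with the dentate gyrus trimmed away, and they fell into 4 groups of 3: control 1 hr, control 3 hr, LTP 1 hr and LTP 3 hr. The paper left a control 3 hr library out of its APA analysis as an outlier. Whether the list holds PASs found only in that library was not examined. In the LTP slices chemical LTP was induced with ACSF holding 50 µM forskolin, an activator of adenylyl cyclase, followed by forskolin with 30 mM KCl and 10 mM Ca. Control slices of the same animals received ACSF with 0.2% DMSO, and collection followed 1 or 3 hr later. Slices hold neurons, glia and vascular cells, so a listed PAS cannot be given to a cell type. The 12 columns of read counts could not be given to libraries by their names and were not used, so the values below describe which PASs were found in the libraries as a whole. The paper counted PASs after a filter on read number and relative abundance, and the list holds more PASs and genes than it reports. No such filter was applied here, so rarely used PASs count like the others. Neither the use of a PAS, the depth behind it nor a difference between LTP and control slices is reported, and there are no replicate errors. Intervals are 95% Wilson intervals over genes or sites and cover counting error only. Members of the family share sequence and are not independent of each other, and how reads that map to near-identical members were assigned is not given in the sources used here.

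The 30 bases at the junction to the last exon are shown for 5 KRAB members, since all their fingers are encoded downstream of it in the GENCODE transcript. The intronic PASs of the list were not placed against these junctions, which are on another build. The 5 were chosen after their values were seen, as those with the most intronic PASs among members with a KRAB pattern, an exon3 PAS and all fingers in the last exon. *Zfp251* was tied at 5 intronic PASs with *Zfp30* and *Zfp931* and was taken by order of symbol. The lower case letters are the last 15 bases of the exon before, and the capitals are the first 15 bases of the last exon, in the sense of the mRNA (GENCODE M21 transcripts, GRCm38). All 5 junctions lie in coding sequence.
Zfp760: acttggtctctgttgAGAAGCATCACATGT
Zfp948: acctggtgtttgtggAGAAATATTCTGTAC
Zfp459: aagcagtgttcccagGAATAACACCCAATG
Zfp951: tagaagacatggaagGCATCTTCAAATGGA
Zfp251: gacgttgccagacagATTCTGAGATCGAGG

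On GRCm38, the capitals of *Zfp760* are chr17:21721988-21722002 on the plus strand and those of *Zfp948* are chr17:21586705-21586719, also on the plus strand. Those of *Zfp459* are chr13:67408728-67408742, those of *Zfp951* chr5:104815421-104815435 and those of *Zfp251* chr15:76854600-76854614, all on the minus strand. The 16 fingers of *Zfp760*, the 15 of *Zfp948*, the 3 of *Zfp459*, the 10 of *Zfp951* and the 11 of *Zfp251* are all encoded downstream of these junctions. The listed intronic PASs numbered 8 in *Zfp760*, 7 in *Zfp948*, 6 each in *Zfp459* and *Zfp951*, and 5 in *Zfp251*. All other positions below are those of the list, for which the submitters' notes name mm9, and the 2 builds were not mixed.

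Zfp genes had more listed PASs than other genes. The median was 4 PASs per Zfp gene (quartiles 2 and 6, range 1 to 14) and 2 per gene over the 16283 other genes (quartiles 1 and 4, range 1 to 40). Of the Zfp genes, 289 of 344 had 2 or more PASs, a share of 84.0% (79.8 to 87.5%), against 66.7% (66.0 to 67.4%) of the other genes. A count of 5 or more PASs was found for 39.5% of Zfp genes and 23.3% of other genes. A lone PAS was listed for 55 Zfp genes (16.0%) and for 33.3% of other genes. For 51 of these 55 it was a PAS of the 3′-most exon. At 10 or more PASs the shares were close, 5.81% (3.79 to 8.81%) and 5.41%, so the excess lay at 3 to 9 PASs per gene. Expression level and depth, which bear on how many PASs of a gene are found, were not analysed here.

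**Figure D1:**
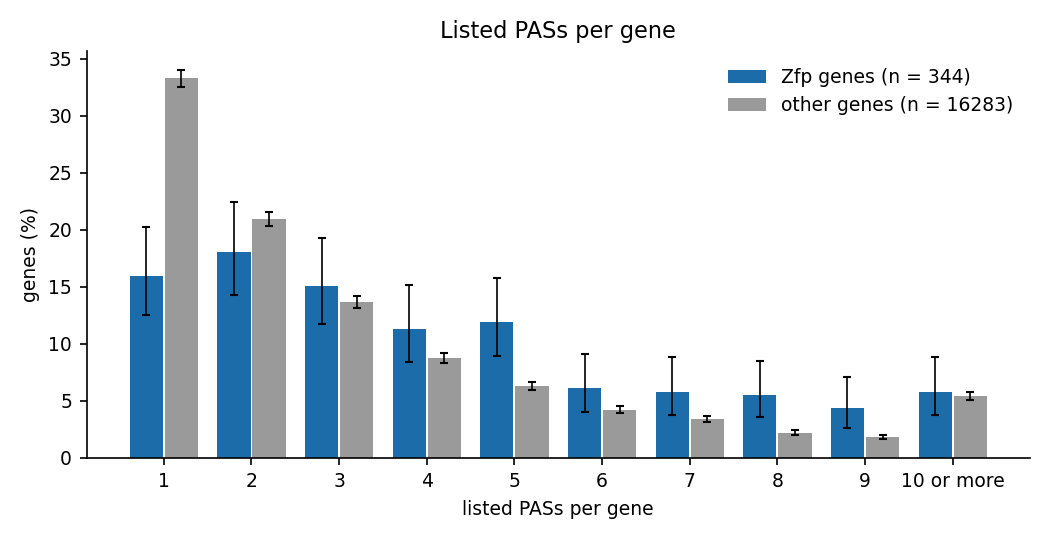
Share of genes (%, y axis) by number of listed PASs per gene (x axis), for 344 Zfp genes (blue) and 16283 other genes (grey); bars are shares and error bars 95% Wilson intervals. The blue bar stands at 16.0% for 1 PAS, where the grey bar reaches 33.3%, and is the higher one from 3 PASs on.

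Related families with other names were set beside the Zfp genes. Some of their members carry older Zfp symbols in the list and were counted as Zfp genes, such as *Zfp238* (Zbtb18) and *Zfp192* (Zkscan8). The Zbtb genes, whose proteins pair C2H2 fingers with a BTB domain, had 2 or more PASs in 31 of 38 genes (81.6%, 66.6 to 90.8%). The Zscan and Zkscan genes, with a SCAN domain before the fingers, had 2 or more in 16 of 17 (94.1%, 73.0 to 99.0%). Both intervals include the share of the Zfp genes, but that of the Zbtb genes also includes the 66.7% of other genes. With 5 or more PASs the shares were 36.8% (23.4 to 52.7%) in Zbtb genes and 23.5% (9.56 to 47.3%) in Zscan and Zkscan genes. In Zfp and other genes they were 39.5% and 23.3%. An intronic PAS was listed for 12 of the 17 Zscan and Zkscan genes (70.6%, 46.9 to 86.7%) and 12 of the 38 Zbtb genes (31.6%, 19.1 to 47.5%).

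By the labels of the list, 943 of the 1482 Zfp entries were exon3, the 3′-most exon (63.6%, against 55.4% for other genes). Intronic PASs took 305 entries, of which 257 carried the label intron_Comp, read from its name as a composite terminal exon, and 48 the label intron_Skip, read as a skipped terminal exon. PASs beyond the annotated gene end, exon3ext, took 121 entries. The label UA, taken as upstream antisense, took 95 entries, all on the strand opposite to the gene. The remaining 18 entries were 11 exon53, 4 exonI and 3 exon5.

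The 3′-most exon held an exon3 PAS in 332 Zfp genes (96.5%), and in 236 of them it held 2 or more. That share, 71.1% (66.0 to 75.7%), compared with 49.0% (48.2 to 49.8%) of other genes with an exon3 PAS. In Zbtb genes it was 25 of 36 (69.4%, 53.1 to 82.0%). In Zscan and Zkscan genes it was 12 of 16 (75%, 50.5 to 89.8%). Both intervals included the Zfp share and lay above the interval of other genes. The shares with 4 or more exon3 PASs were 29.2% in Zfp genes and 13.9% in other genes. For 9 of 36 Zbtb genes (13.8 to 41.1%) and 2 of 16 Zscan and Zkscan genes (3.50 to 36.0%) the intervals included both shares. The mean was 2.84 exon3 PASs in Zfp genes against 2.06 in other genes. The distance between the outermost exon3 PASs had a median of 1184.5 nt in the Zfp genes (quartiles 481.25 and 2187.25 nt, n = 236) and of 800 nt in the others. For neighbouring exon3 PASs the medians were 306 nt and 257 nt.

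The last exon, which encodes the fingers of most Zfp genes, is long. Its median length in the GENCODE transcript with the longest coding sequence was 2649 nt for 342 Zfp genes and 1191 nt for other genes. The coding part had a median of 1277 nt in Zfp genes and 153 nt in the others, and the noncoding part medians of 1281.5 nt and 892 nt. When genes were set side by side by the length of this exon, the shares of Zfp and other genes with 2 or more exon3 PASs lay closer together. From 1000 to below 2000 nt, 41 of 72 Zfp genes (56.9%, 45.4 to 67.7%) and 53.6% of other genes had them. From 2000 to below 3000 nt the shares were 70.3% (60.3 to 78.7%) and 66.5%. From 3000 to below 4000 nt they were 81.3% (71.1 to 88.5%) and 71.3% (68.6 to 73.9%), and at 4000 nt or more 85.5% (74.7 to 92.2%) and 75.6% (73.0 to 77.9%). The classes below 1000 nt held 9 and 21 Zfp genes. The intervals overlapped in every class, while the Zfp genes had the higher share in each. Grouped by the noncoding part of the last exon alone, the shares lay farther apart in the shorter classes. With a noncoding part below 500 nt, 50.8% (38.9 to 62.5%) of 65 Zfp genes and 27.9% (26.6 to 29.2%) of other genes had 2 or more exon3 PASs. From 500 to below 1000 nt the shares were 65.7% (53.7 to 75.9%) and 44.8% (43.0 to 46.7%), and from 1000 to below 2000 nt 76.0% (66.6 to 83.5%) and 59.2% (57.5 to 60.9%). The intervals did not overlap in these 3 classes and overlapped in the 3 classes of 2000 nt or more.

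**Figure D2:**
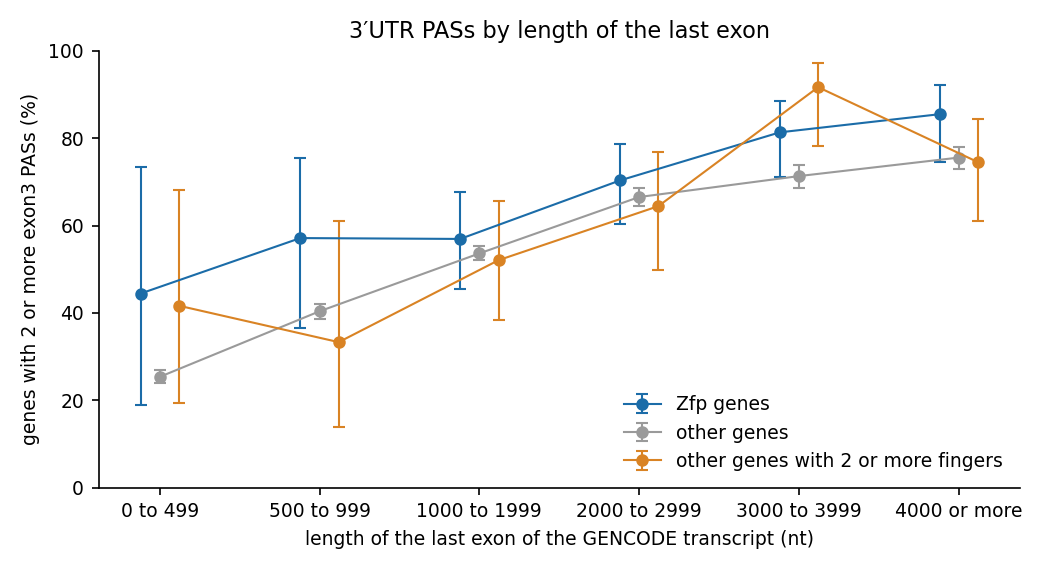
Share of genes with 2 or more exon3 PASs (%, y axis), among genes with an exon3 PAS, by length of the last exon in nt (x axis), for Zfp genes, other genes and other genes whose protein holds 2 or more C2H2 fingers; points are shares and bars 95% Wilson intervals. All 3 groups are higher at 3000 nt or more than below 1000 nt, and the Zfp points run from 44.4% to 85.5%.

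Other genes with 2 or more C2H2 fingers had last exons of similar length, with a median of 2572 nt. Their share with 2 or more exon3 PASs was 52.1% (38.3 to 65.5%) from 1000 to below 2000 nt, 64.4% (49.8 to 76.8%) from 2000 to below 3000 nt, 91.7% (78.2 to 97.1%) from 3000 to below 4000 nt and 74.5% (61.1 to 84.5%) above that. These intervals overlapped those of the Zfp genes, and the share was above that of the Zfp genes from 3000 to below 4000 nt and below it in the other 3 classes. Grouped by the noncoding part, the share of these finger genes was 42.9% (28.0 to 59.1%) below 500 nt. It was 56.7% (39.2 to 72.6%) from 500 to below 1000 nt and 56.4% (43.3 to 68.6%) from 1000 to below 2000 nt. In these 3 classes the intervals overlapped both those of the Zfp genes and those of all other genes. The exon3 label covers the whole of the 3′-most exon, and whether a given exon3 PAS lies in coding sequence or the 3′UTR was not tested. In 64 of 235 Zfp genes with 2 or more exon3 PASs (27.2%, 21.9 to 33.3%) the outermost PASs lay farther apart than the noncoding part of the last exon is long, against 14.2% (13.4 to 15%) of other genes. The distance was longer than the whole last exon in 20 of the 235 (8.51%) and in 9.76% of the others, so for these genes the exon of the list and that of GENCODE differ.

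The longest stretch between outermost exon3 PASs was that of *Zfp704*, with 11337 nt and 6 PASs in a last exon of 11879 nt. Its PASs lay 0, 67, 2276, 9674, 10728 and 11337 nt from the first of them, thus in a proximal and a distal group with a gap of 7398 nt. *Zfp192* (Zkscan8) followed with 7478 nt and 5 PASs, then *Zfp518b* with 6270 nt and 2 PASs. *Zfp945* had 7 PASs over 5953 nt and *Zfp563* 5 over 5393 nt. Distances over 5000 nt were found in 7 Zfp genes.

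*Zfp148*, a Krüppel-type transcription factor that binds GC-rich DNA, showed a similar pattern of an early and a late group. Its first 3 exon3 PASs lay within 612 nt and the other 5 between 4111 and 5345 nt. All 8 of its PASs were exon3. *Zfp882*, a KRAB member with 13 fingers, had the most exon3 PASs of the family, 11 over 4992 nt, followed by an exon3ext PAS and preceded by 2 intronic PASs at 3672 and 472 nt upstream. *Zfp91*, a ubiquitin ligase that acts in noncanonical NF-kB signalling, had 8 exon3 PASs over 2314 nt and an exonI PAS. Of these 8 positions, 4 were also listed under U05342 as intron_Comp, the only Zfp entries listed under more than 1 gene.

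**Figure D3:**
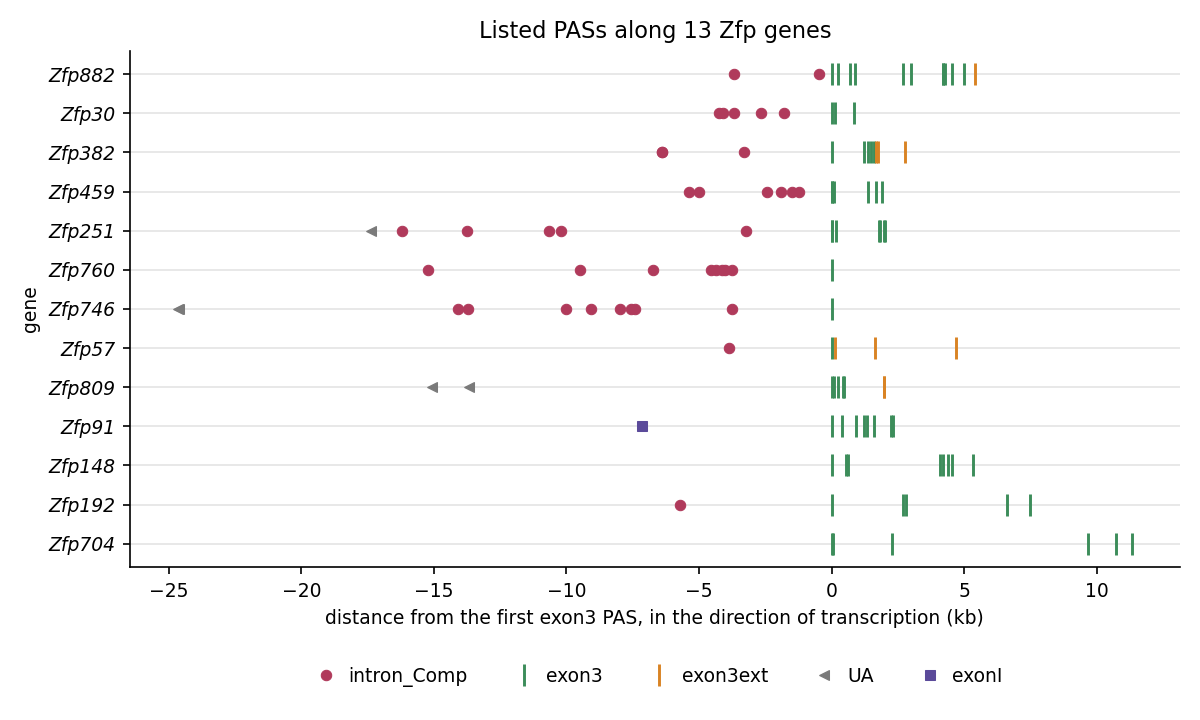
Listed PASs of 13 Zfp genes (rows) by distance in kb from the first exon3 PAS in the direction of transcription (x axis, linear); each mark is a PAS and its shape and colour give the region label of the list. Intronic PASs (circles) lie to the left of 0 in every gene that has them, and exon3 PASs spread over 11337 nt in *Zfp704* but stand alone in *Zfp760* and *Zfp746*.

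Intronic PASs were listed for 131 Zfp genes, 38.1% (33.1 to 43.3%), and for 33.4% (32.7 to 34.1%) of other genes. The mean number per gene was 0.887 in Zfp genes and 0.914 in the others. Beside the larger number of exon3 PASs, intronic PASs made up a smaller part of their intronic and exon3 sites, 305 of 1248 or 24.4% (22.1 to 26.9%), against 32.9% (32.5 to 33.3%). The part was 33.1% (26.0 to 41.1%) in Zbtb genes and 38.1% (27.1 to 50.4%) in Zscan and Zkscan genes. Of the intronic PASs, 15.7% (12.1 to 20.2%) were intron_Skip in Zfp genes and 11.6% in all other genes. Among genes with both kinds, intronic PASs outnumbered exon3 PASs in 27 of 124 Zfp genes (21.8%, 15.4 to 29.8%) and in 34.7% of other genes. The intronic PASs of Zfp genes lay closer to the 3′-most exon, a median of 8575 nt upstream of the first exon3 PAS (n = 283) against 20981.5 nt in all other genes. The median was 6903 nt in Zscan and Zkscan genes (n = 23) and 23324 nt in Zbtb genes (n = 41). Only intronic PASs upstream of the first exon3 PAS entered these medians. In Zfp genes all 283 lay upstream of it, an order that the labels as read here imply.

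Zfp genes have few exons, with a median of 5 against 9 in other genes. Among genes with 4 or 5 exons, 71 of 155 Zfp genes (45.8%, 38.2 to 53.7%) had an intronic PAS, compared with 24.7% (23.0 to 26.6%) of 2264 other genes. With 2 or 3 exons the shares were 14.1% (7.58 to 24.6%) and 16.2%, with 6 to 9 exons 37.2% (27.7 to 47.8%) and 31.8%, and with 10 or more 52.9% (36.7 to 68.5%) and 43.0%. The interval of the Zfp genes thus lay above that of the others in the class of 4 or 5 exons and overlapped it in the other 3 classes. Intron length was not compared.

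**Figure D4:**
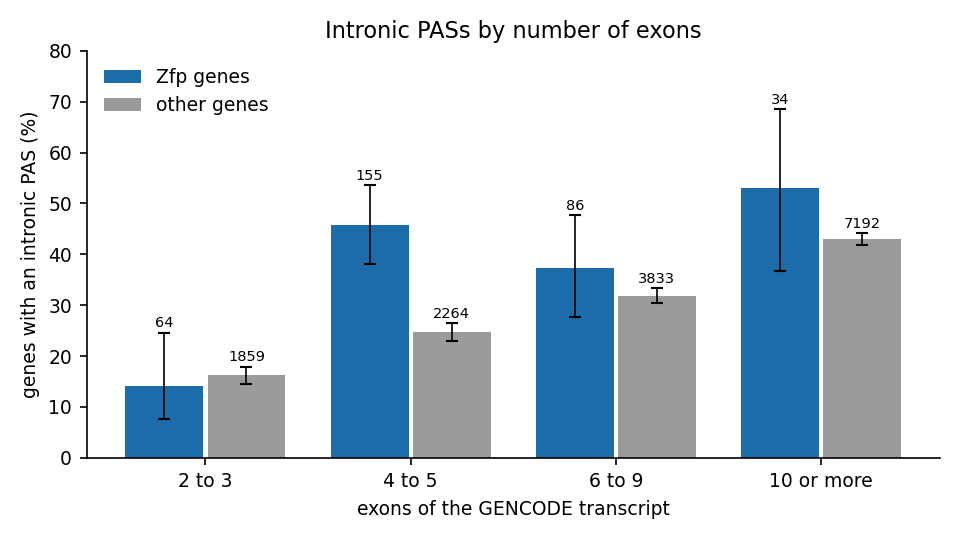
Share of genes with an intronic PAS (%, y axis) by number of exons of the GENCODE transcript (x axis), for Zfp genes (blue) and other genes (grey); numbers above the bars are genes and error bars 95% Wilson intervals. At 4 to 5 exons the blue bar stands at 45.8% and the grey one at 24.7%.

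The class with 4 or 5 exons is where most KRAB members lie. A C2H2 finger pattern was found in 328 of 342 translated Zfp proteins (95.9%), with a median of 10 fingers and a range of 1 to 36, and a KRAB pattern in 172 (50.3%, 45.0 to 55.6%). A match to either end of the KRAB A box was enough, and requiring both ends left 87 (25.4%), so the KRAB classes below rest on the looser match. The search also missed at least *Zfp746*, a KRAB-type protein, so genes without the pattern are not known to lack the domain. Of the 342, 118 had a KRAB pattern and 4 or 5 exons. An intronic PAS was listed for 61 of these 118 (51.7%, 42.8 to 60.5%) and for 10 of 37 Zfp genes with 4 or 5 exons and no KRAB pattern (27.0%, 15.4 to 43.0%). The intervals overlapped at their edges. With both ends of the box required, the shares were 54.4% (41.6 to 66.6%) and 40.8% (31.6 to 50.7%), and the intervals overlapped more widely. By the looser match, at 2 or 3 exons the shares were 16.7% (4.70 to 44.8%) of 12 genes with the pattern and 13.5% (6.68 to 25.3%) of 52 without it. With 6 or more exons the shares were 38.1% (25 to 53.2%) with the pattern and 43.6% (33.1 to 54.6%) without it.

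All fingers were encoded by the last exon in 253 of 328 Zfp genes (77.1%, 72.3 to 81.3%). This held for 169 of 171 genes with both a KRAB and a finger pattern (98.8%) and for 84 of 157 with fingers and no KRAB pattern (53.5%). The KRAB pattern was never in the last exon (0 of 172). Fingers were encoded wholly upstream of the last exon in 57 genes and on both sides in 18.

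Among the 169 genes with KRAB and all fingers in the last exon, 78 had an intronic PAS (46.2%, 38.8 to 53.7%). The share was 20.2% (13 to 30.0%) in the 84 genes with all fingers in the last exon and no KRAB pattern, and 41.3% (30.9 to 52.6%) in the 75 genes with fingers outside it. The first 2 intervals did not overlap. The median exon number was 5 in the genes with the KRAB pattern and 3 in those without it. Over all Zfp genes the share with an intronic PAS was 14.1% at 2 or 3 exons and 45.8% at 4 or 5. Whether exon number accounts for the difference was not tested. With both ends of the KRAB box required, the shares were 51.2% (40.8 to 61.4%) of 86 genes and 30.5% (24.1 to 37.9%) of 167. The median distance from an intronic PAS to the first exon3 PAS was 6332 nt in the KRAB genes and 7009.5 nt in the genes with fingers in the last exon and no KRAB pattern. It was 30466 nt in those with fingers outside the last exon, whose median exon number was 9. The shares with 2 or more exon3 PASs were 75% (67.9 to 81.0%), 62.5% (51.5 to 72.3%) and 69.4% (58.0 to 78.9%) in the 3 classes, and these intervals overlapped. Of the 124 Zfp genes with both an intronic and an exon3 PAS, 91 (73.4%, 65.0 to 80.4%) had all fingers in the last exon, and 74 of these also had KRAB. Since PASs were not placed in GENCODE exons, whether a transcript that ends at an intronic PAS of these genes lacks the fingers or includes the KRAB exons was not tested.

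**Figure D5:**
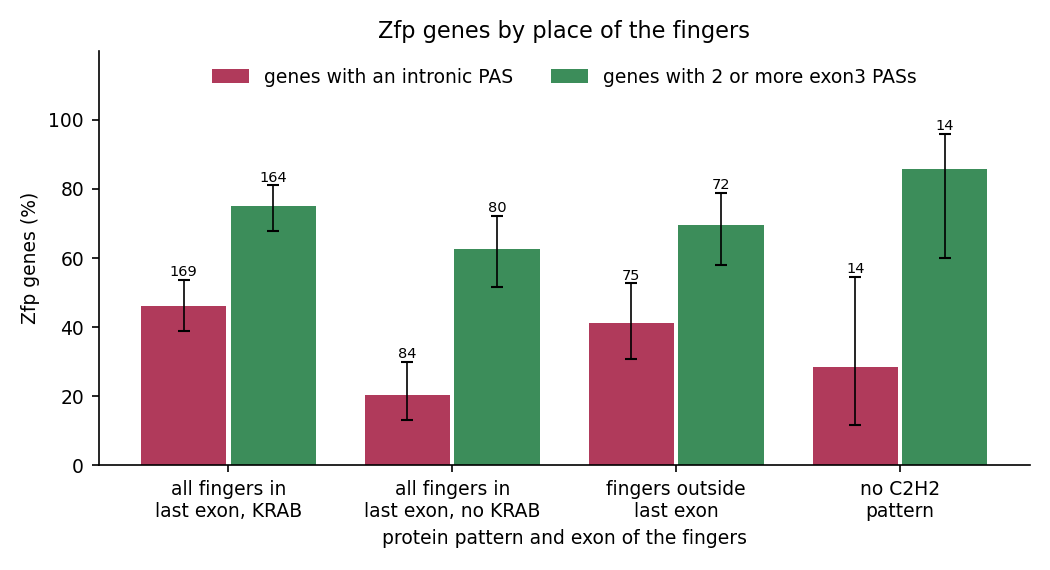
Share of Zfp genes with an intronic PAS (red) and with 2 or more exon3 PASs (green, among genes with an exon3 PAS), in %, by KRAB pattern and by the exon that encodes the fingers; numbers above the bars are genes and error bars 95% Wilson intervals. Among genes with all fingers in the last exon, the red bar is 46.2% for those with a KRAB pattern and 20.2% for those without it.

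The genes of the 5 junctions show how these PASs are spread. In *Zfp760* the 8 intronic PASs lay 15226, 9496, 6745, 4558, 4355, 4115, 4035 and 3758 nt upstream of its only exon3 PAS, so 5 of them fell within 800 nt of each other. In *Zfp948* the 7 intronic PASs lay between 18453 and 5904 nt upstream, again before a lone exon3 PAS. *Zfp459* had 6 intronic PASs from 5378 to 1218 nt upstream and 6 exon3 PASs over 1919 nt. *Zfp951* had 2 intron_Comp PASs and 4 intron_Skip PASs, between 29669 and 15358 nt upstream of the first of 3 exon3 PASs. *Zfp251* had 5 intronic PASs from 16215 to 3224 nt upstream, a UA PAS and 7 exon3 PASs in 2 groups, 3 within 172 nt and 4 from 1787 to 2015 nt.

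The 5 genes with the most PASs were *Zfp277* and *Zfp882* with 14 each and *Zfp251*, *Zfp407* and *Zfp609* with 13 each. Only *Zfp882* and *Zfp251* of these had a KRAB pattern. *Zfp277*, with 3 fingers and 13 exons, had 10 intronic PASs between 129237 and 6193 nt upstream and 3 exon3 PASs over 502 nt. *Zfp407*, with 22 fingers, had 9 intronic PASs and a lone exon3 PAS, and its farthest intronic PAS lay 380378 nt upstream, the greatest distance in the family. *Zfp609*, which binds the cohesin loader Nipbl and acts in cortical development, had 9 intronic PASs between 130487 and 4078 nt upstream and 4 exon3 PASs over 3875 nt. *Zfp746*, a KRAB-type repressor also known as PARIS that is a target of the ubiquitin ligase parkin, had 8 intronic PASs from 14091 to 3754 nt upstream of a lone exon3 PAS. The KRAB search used here did not match its protein, so it counts among the genes without the pattern.

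*Zfp536*, a brain-expressed repressor of neuronal differentiation, had the most intronic PASs, 12, of which 9 were intron_Comp and 3 intron_Skip. It had no exon3 PAS at all. No exon3 PAS was listed for 12 Zfp genes, which are named here after their values were seen. *Zfp457*, *Zfp804b*, *Zfp872* and *Zfp936* had, like *Zfp536*, intronic PASs only, 3, 2, 1 and 1 in number. *Zfp146* and *Zfp345* had an exon3ext PAS only, *Zfp366* and *Zfp964* had intronic and exon3ext PASs, and *Zfp498* had exon3ext and UA PASs. *Zfp964* held the most exon3ext PASs of the family, 7. *Zfp238* (Zbtb18), a repressor needed for cortical neuron development, had 6 PASs and *Zfp830* 5, all labelled exon53, a label read as that of single-exon genes. This reading is uncertain, since the GENCODE transcript of *Zfp238* has 2 exons. The lone PASs of *Zfp358* and *Zfp579*, with 1 exon each in GENCODE, were labelled exon3.

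PASs beyond the annotated gene end were listed for 59 Zfp genes (17.2%, 13.5 to 21.5%) and for 12.1% (11.6 to 12.6%) of other genes. In the 54 Zfp genes that also had an exon3 PAS, the last exon3ext PAS lay a median of 1790.5 nt beyond the last exon3 PAS, compared with 1180 nt in other genes. Upstream antisense PASs were listed for 57 Zfp genes (16.6%, 13 to 20.9%) and 13.8% of other genes.

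Many Zfp genes lie in clusters in the genome, and 81 of the 344 (23.5%) were on chromosome 7. There they made up 6.21% of the 1305 listed genes, beside 344 of the 16627 listed genes over all chromosomes. Chromosome 17 held 41 and chromosome 13 held 33. Counting runs of 3 or more Zfp genes with gaps of at most 100000 nt between neighbours, 148 genes (43.0%, 37.9 to 48.3%) fell into 28 clusters. The other 196 lay outside clusters, and the rule was not applied to other sets of genes. A KRAB pattern was found in 114 of 146 clustered genes with a protein (78.1%, 70.7 to 84.0%) and in 58 of 196 genes outside clusters (29.6%, 23.6 to 36.3%). With both ends of the box required the shares were 43.2% (35.4 to 51.3%) and 12.2% (8.37 to 17.6%). In 24 of the 28 clusters every gene had its fingers in the last exon alone.

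An intronic PAS was listed for 60 of 148 clustered genes (40.5%, 33.0 to 48.6%) and for 71 of 196 others (36.2%, 29.8 to 43.2%), so the shares differed by less than their intervals. The shares with 2 or more exon3 PASs were 68.1% (60.1 to 75.1%) and 73.4% (66.7 to 79.2%), and those with an exon3ext PAS 21.6% (15.8 to 28.9%) and 13.8% (9.64 to 19.3%). The intronic PASs of clustered genes lay a median of 6348 nt upstream of the first exon3 PAS, and those of the others 12809 nt.

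The largest cluster, chr13:67139530-67645888, held 16 genes with 71 entries, 14 of the genes on the minus strand. All 16 had their fingers in the last exon and 15 had a KRAB pattern, *Zfp953* being the exception. Of the 16, 10 had an intronic PAS and 11 had 2 or more exon3 PASs, and the neighbours differed widely. *Zfp459* had 12 PASs, *Zfp748* 9 and *Zfp595* 8, while *Zfp708*, *Zfp874a* and *Zfp87* had 2 each. The 2 intronic PASs of *Zfp595* lay 421 and 169 nt upstream of the first of its 6 exon3 PASs, and those of *Zfp458* lay 10964 and 9436 nt upstream. *Zfp457* had 3 intronic PASs and no exon3 PAS, and *Zfp712*, with 4 exon3 PASs over 1027 nt, had no intronic PAS.

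The second cluster, chr7:30562848-30946259, held 14 genes with 75 entries, 7 on each strand, and 9 of them had an intronic PAS. *Zfp30* had 5 intronic PASs from 4240 to 1808 nt upstream and 3 exon3 PASs over 840 nt. *Zfp568*, a KRAB protein that represses a placental transcript of *Igf2*, had 4 intronic PASs from 34164 to 23664 nt upstream, 4 UA PASs and 3 exon3 PASs over 4088 nt. *Zfp382* had 11 PASs, of which 3 were intronic, 5 exon3 and 3 exon3ext. *Zfp260* and *Zfp146* of the same cluster had 1 PAS each. The third, chr7:24892728-25086848, held 9 genes with 38 entries, among them *Zfp235* with 3 intron_Skip PASs and *Zfp111* with 6 exon3 PASs over 3706 nt. By contrast, the cluster of 8 genes at chr17:32902441-33247650 had an intronic PAS in 1 gene only, although all 8 had KRAB and 2 or more exon3 PASs. In all, 5 of the 28 clusters had no intronic PAS in any gene.

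A set of 35 members with known roles was chosen with earlier results of these data in view, and 34 were in the list (*Zfp638* was not). The set does not hold every member with a known role. Of the 34, 29 had 2 or more PASs (85.3%, 69.9 to 93.6%) and 11 had an intronic PAS (32.4%, 19.1 to 49.2%), close to the shares of the whole family. *Zfp36* (tristetraprolin) had a lone exon3 PAS, *Zfp36l2* had 2 exon3 PASs 712 nt apart, and *Zfp36l1* had 4 over 515 nt and a UA PAS. None of the 3 had an intronic PAS. Their proteins held 2 CCCH patterns each and no C2H2 pattern. No C2H2 pattern was found in 14 members, which include *Zfp259*, *Zfp365*, *Zfp503* and *Zfp703*.

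*Zfp57*, a KRAB protein that keeps DNA methylation at imprinted regions, had a lone exon3 PAS, 3 exon3ext PASs and an intronic PAS 3866 nt upstream. *Zfp809*, a KRAB protein that silences endogenous retroviruses, had 5 exon3 PASs over 470 nt, 2 exon3ext and 2 UA PASs. Its GENCODE last exon is 321 nt long and holds none of its 7 fingers, 1 of the 2 KRAB members with fingers outside the last exon. *Zfp318*, which in B cells acts on the choice between IgM and IgD transcripts, had 3 exon3, 3 exon3ext and an intronic PAS at 13784 nt. *Zfp106*, an RNA-binding protein of motor neurons, had 5 exon3 PASs over 2952 nt and 2 intronic PASs at 23631 and 5205 nt upstream.

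Some close relatives lay at opposite ends, both with many fingers and with few. *Zfp521*, with 27 fingers, had 4 intronic PASs from 282702 to 25475 nt upstream and 2 exon3 PASs, while *Zfp423*, its close relative with 27 fingers, had 4 exon3 PASs over 468 nt and no intronic PAS. *Zfp385b*, with 4 fingers, had 6 intronic PASs, the farthest at 368664 nt upstream. *Zfp385a*, an RNA-binding relative with 3 fingers, had a lone exon3 PAS. *Zfp142* had the most fingers, 36, with 5 exon3 PASs over 1556 nt and no intronic PAS. *Zfp462*, with 33 fingers, had 4 exon3 PASs, 2 UA PASs and 2 intronic PASs at 76900 and 2644 nt upstream. A lone exon3 PAS was listed for *Zfp219*, *Zfp326*, a subunit of the DBIRD complex that links transcription and splicing, and *Zfp335*, which is needed for neural progenitors. *Zfp598*, the ubiquitin ligase that marks collided ribosomes, had 2 exon3 PASs 118 nt apart, and *Zfp804a* had 2 that were 28 nt apart.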

How the data were processed

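3′READS+ libraries of 12 mouse hippocampal slice samples were deposited as 1 list of PASs (gene symbol, chromosome, strand, position, region label) with 12 columns of read counts. The authors used reads with unaligned Ts to call PASs and merged nearby ones. Per the submitters' notes, reads were mapped with Bowtie2 to mm9. The names of the 12 read columns match no sample label, so none was used and the planned LTP tests were not run. Depth was not analysed here.

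Members are symbols starting with Zfp and a digit. Members, lists and tests were chosen with earlier results of these data known. Genes named singly were the top 5 by PASs, intronic PASs, exon3 span, intronic distance and fingers, members without finger pattern, the 3 largest clusters and a chosen set of members with known roles.

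Intronic means intron_Comp or intron_Skip. Exon structure and translated proteins came from the GENCODE M21 (GRCm38) transcript with the longest coding sequence, matched by symbol (330) or RefSeq synonym (14), in place of the RefSeq proteins planned. Since these structures are of another build, PASs were not placed in exons. A C2H2 finger was C, 2 to 4 residues, C, 12 residues, H, 3 to 5 residues, H. KRAB was a match to the start or end of the A box. Analyses used Python 3.11.15, pandas 2.3.3, numpy 2.4.6, scipy 1.17.1, Biopython 1.88 and matplotlib 3.10.9, and were tested on simulated data.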

Additional observations from a re-analysis of the deposited data

How the results depend on the processing

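No test was run, and the values rest on 1 list without replicates. Leaving out UA sites kept the share of genes with 2 or more PASs within its interval. Leaving out sites listed under more than 1 gene kept that share and the intronic share within theirs. Leaving out symbols with letters after the digits did so for these 2 and for the share with an intronic PAS. Over all region labels the intronic share was 20.6% (27.2% in other genes). With exon3ext sites, the median distance between outermost PASs was 1570.5 nt (989 nt in other genes). With a largest gap of 50000 nt, 33.7% of Zfp genes were in clusters. With fixed spacing, 88.9% of proteins had a C2H2 pattern. Requiring both ends of the KRAB box, an alternative chosen after seeing the data, left 25.4% of proteins with a KRAB pattern, 43.2% of clustered and 12.2% of other Zfp genes. It gave an intronic PAS in 30.5% of the genes without a KRAB match and with all fingers in the last exon. No paired analysis was possible because no read column could be given to an animal. The edgeR tests, their filter, left-out replicates and block were not run. The number of listed PASs can depend on depth and expression, whose part was not tested.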
